A study of Mus musculus with 947 samples.

Results

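The miR-34 and miR-449 family was followed through a bulk small RNA survey of mouse organs by 6 of its mature miRNAs, namely mmu-miR-34a-5p, mmu-miR-34b-5p, mmu-miR-34b-3p, mmu-miR-34c-5p, mmu-miR-34c-3p and mmu-miR-449a-5p, written from here on without the mmu (mouse) prefix. They were taken by name, out of 1076 miRNAs and 7883 noncoding RNAs listed for the aging cohort and 795 miRNAs and 5248 noncoding RNAs listed for the parabiosis cohort. The aging cohort held 769 libraries of 16 tissues from male and virgin female C57BL/6JN mice of 10 ages, at 1 month and then every 3 months from 3 to 27 months, with 553 libraries from males, 216 from females (none older than 21 months) and 1 to 6 libraries per tissue and age. The parabiosis cohort held 176 libraries of 6 tissues from 30 male mice that were surgically joined so that they shared a circulation. They formed 7 heterochronic pairs of an aged mouse (HA, 19 months) with a young mouse (HY, 4 months), 4 isochronic aged pairs (IA, 19 months) and 4 isochronic young pairs (IY, 3 or 4.5 months). All HY mice were of a strain that the other groups did not share, so strain and treatment cannot be told apart in comparisons with HY. The other parabiosis mice were C57BL/6J or C57BL/6JN, and the sources used here differ on which mice were which. By the study's sample list the young isochronic mice were of one substrain and the aged mice, HA and IA, of both, and its part in comparisons with aged mice was not tested. Values are rpmm, the reads of a miRNA per 1000000 mapped reads of its library. Median depth was 20.1 M mapped reads in the aging cohort (2.29 to 167 M) and 20.1 M in the parabiosis cohort (9.2 to 47.6 M), so that 1 rpmm stood for about 20.1 reads in a library of median depth.

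MiRNAs are short RNAs that guide a silencing complex to messenger RNAs, chiefly through the seed, bases 2 to 8 from their 5′ end. MiR-34a is a direct transcriptional target of the tumor suppressor p53 and is widely expressed, and its known targets include cell cycle and survival genes such as Bcl2 and Sirt1. The miR-34b/c and miR-449 hairpins are known for multiciliated epithelia such as the airway, ependyma and reproductive tract, where they take part in the making of motile cilia, and for male germ cells. One hairpin can give a mature miRNA from each arm, named 5p and 3p, and these carry different seeds.

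The mature sequences are shown because the members group by seed and the tissue pattern runs across that grouping. RefSeq (GRCm38.p6) held 5 of the 6 members, and miR-34c-5p was not matched. The seed is in capitals, and miR-449c-5p and miR-34a-3p, which are no members, are given for comparison.
miR-34a-5p: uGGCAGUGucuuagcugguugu
miR-34b-5p: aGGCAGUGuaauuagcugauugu
miR-449a-5p: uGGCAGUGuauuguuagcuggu
miR-449c-5p: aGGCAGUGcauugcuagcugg
miR-34b-3p: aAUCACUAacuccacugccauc
miR-34c-3p: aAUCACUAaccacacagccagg
miR-34a-3p: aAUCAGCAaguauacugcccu

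The first 4 of these share the seed GGCAGUG, and no other mature miRNA of the RefSeq table did. With no gap allowed, miR-34a-5p and miR-449a-5p, from different chromosomes, were identical at 15 of 22 positions counted from the 5′ end. MiR-34a-5p and miR-34b-5p were identical at 11 of 22. However, miR-34b-5p has 23 bases against 22, and bases after an extra one fall out of line. These counts therefore do not rank the pairs by likeness. The 3p arms of miR-34b and miR-34c shared the seed AUCACUA and 17 of 22 positions, and the 3p arm of miR-34a had another seed.

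The members come from 3 loci. Mir34a lies on the plus strand at chr4:150068454-150068555, within an exon of the unverified transcript Gm37795. Mir34b (chr9:51103562-51103645) and Mir34c (chr9:51103034-51103110) lie 451 bp apart on the minus strand, within an intron of Btg4, a gene of the opposite strand. Mir449a lies on the plus strand at chr13:113037534-113037624, 1442 bp from Mir449c, within an intron of Cdc20b, a gene of the same strand known for multiciliated cells.

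All 6 members passed the filter on low values (at least 1 rpmm in at least 10% of a tissue's libraries) in every aging cohort tissue except miR-34b-3p in marrow, leaving 95 of 96 pairs of a member and a tissue. In the parabiosis cohort, 35 of 36 pairs passed, miR-34b-3p in liver being the exception. The miRNA profile of 10 aging cohort libraries was closest to the median of another tissue. Among them were all 3 mesenteric adipose (MAT) libraries of 27 months, 1 male skin library of 21 months that was closest to liver, and 1 pancreas library of 3 months. In the parabiosis cohort, 4 MAT libraries were closest to gonadal adipose tissue (GAT).

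Across tissues, miR-34a-5p was present at high levels throughout, whereas the other 5 members were concentrated in lung. The median of miR-34a-5p was highest in kidney at 3629 rpmm (286 to 7356, n = 51) and brain at 3402 rpmm (459 to 7537, n = 51), followed by pancreas at 2085 and lung at 1987 rpmm. Kidney and brain did not differ beyond their spread (log2 difference 0.14 ± 0.21 SE, adjusted p = 0.60), nor did pancreas and lung (0.01 ± 0.20, adjusted p = 0.997, permutation test). The lowest median was in bone at 240 rpmm (51.9 to 2606, n = 48), 15.2-fold below kidney, and the highest bone value came from a library closest to SCAT, subcutaneous adipose tissue. With values divided by each library's summed miRNA signal, and with median-ratio scaling, pancreas was highest instead.

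For miR-34b-5p, lung stood at 4396 rpmm (410 to 9854, n = 55), and brain was next at 349 rpmm (117 to 792, n = 51), a 12.6-fold difference. The log2 difference of the means was 3.65 ± 0.14 (adjusted p = 6.92301e-05, permutation test with 100000 resamples over 90 neighbor comparisons). The 2 lowest lung libraries, at 410 and 709 rpmm, fell within the brain range, and the other lung libraries lay above it. The lowest median was in marrow, at 3.23 rpmm.

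The other lung-enriched members followed the same top order of lung, brain and GAT for the 2 arms of miR-34c and for miR-449a-5p. MiR-34c-5p reached 2215 rpmm in lung and 179 rpmm in brain, miR-34c-3p 818 and 78.0 rpmm, miR-34b-3p 395 and 23.1 rpmm, and miR-449a-5p 781 and 44.6 rpmm. The ratios of lung to brain medians ran from 10.5 for miR-34c-3p to 17.5 for miR-449a-5p. At the low end, miR-449a-5p was lowest in pancreas (1.32 rpmm) and held 9.67 rpmm in marrow, where all 4 miR-34b/c products had their lowest medians. This order depended on the scaling. With values divided by the miRNA signal, limb muscle was lowest for miR-34a-5p, both miR-34b arms and miR-449a-5p, and with median-ratio scaling liver was lowest for miR-449a-5p. Of the 90 comparisons of tissues next to each other in a member's order, 35 passed the adjusted p.

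**Figure D1:**
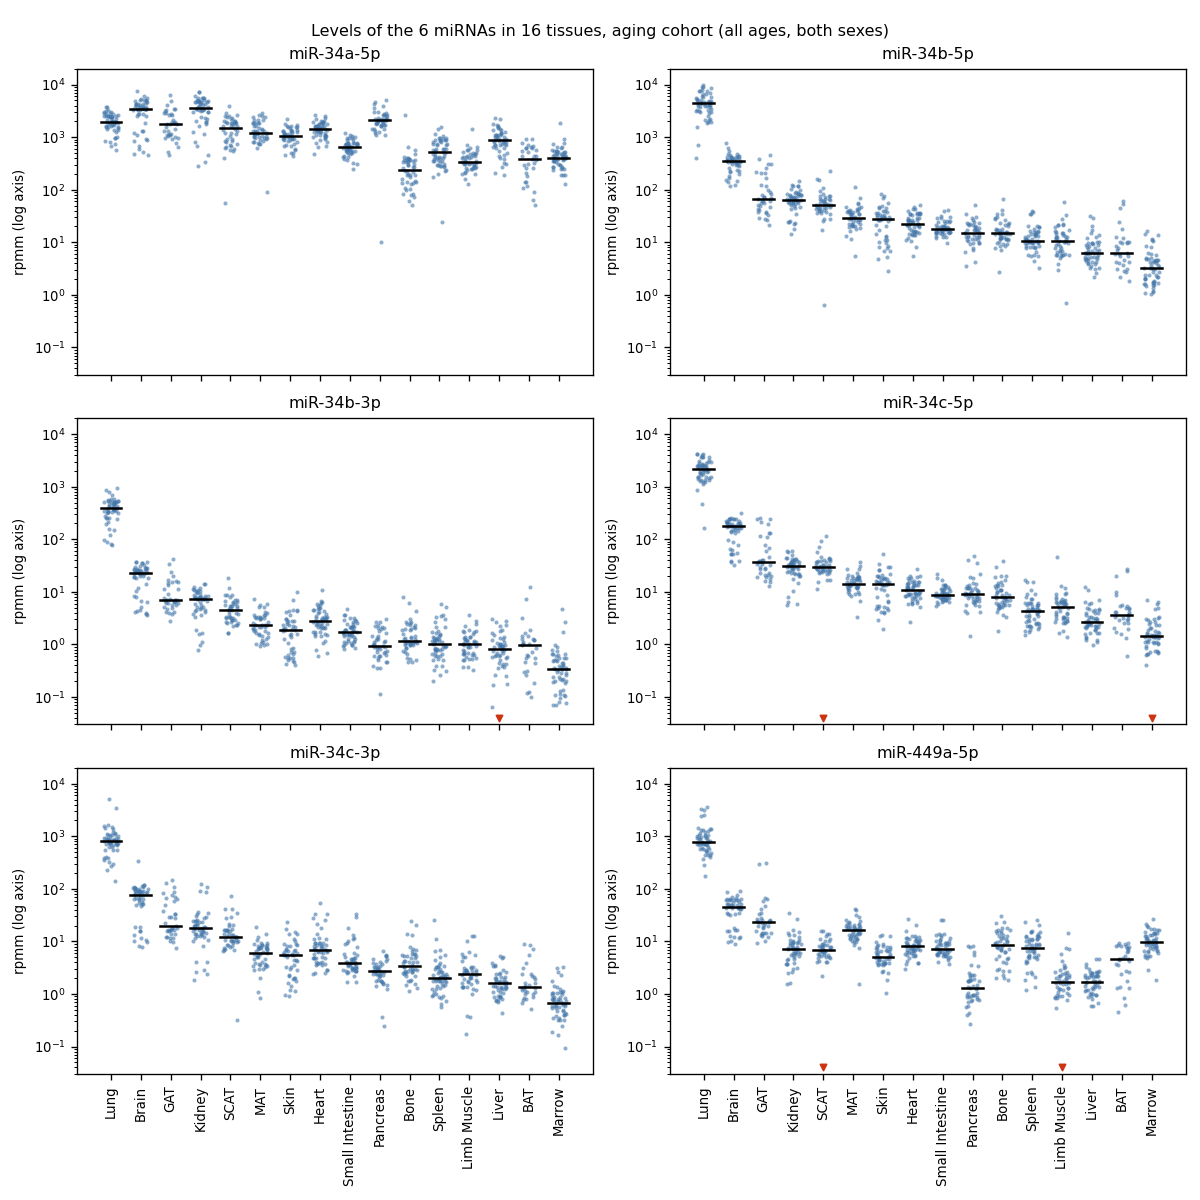
Level of each of the 6 miRNAs (rpmm, log axis) in each of the 16 aging cohort tissues, ordered by the median of miR-34b-5p, with 1 point per library, a black bar at the median and red triangles for libraries at 0. MiR-34a-5p is spread over all tissues, with the highest median in kidney (3629 rpmm), and the other 5 are highest in lung.

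Because the 5p members share a seed, their shares of the summed 5p signal of the family (miR-34a, miR-34b, miR-34c, miR-449a and miR-449c) were computed per library. In lung, miR-34b-5p made up a median of 44.8%, miR-34c-5p 23.4%, miR-34a-5p 21.0% and miR-449a-5p 8.25%. In the other 15 tissues miR-34a-5p held medians of 85.1% (brain) to 98.8% (liver). MiR-449c-5p stayed at a median of 0.0481% in lung. MiR-34a-5p was the largest 5p member by median share in those 15 tissues, and miR-34b-5p was the largest in lung.

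The ratio of 5p to 3p arms, with 1 rpmm added to each arm, was compared in libraries with at least 10 rpmm over both arms. The added 1 rpmm draws the ratio toward 1 where an arm is low, so the ratio also depends on level and scaling. For miR-34b, the median ratio ran from 5.60 in brown adipose tissue to 15.9 in brain, with 11.1 in lung (Kruskal-Wallis H = 162 over 601 libraries of 15 tissues). For miR-34c, it ran from 1.70 in heart to 3.08 in pancreas, with 2.97 in lung (H = 77.6 over 484 libraries of 12 tissues). Both gave an adjusted p of 1e-05, the smallest that 100000 shuffles allow. With 0.1 rpmm added instead, H was 82.2 for miR-34b and 73.6 for miR-34c, so the differences among tissues partly follow the level. Ratios within a tissue were wide. In lung, 1 male library of 6 months held 410 rpmm of miR-34b-5p beside 863 rpmm of miR-34b-3p, and 164 rpmm of miR-34c-5p beside 906 rpmm of miR-34c-3p, so that the 3p arm exceeded the 5p arm at both hairpins.

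The miRNAs most like each member over the 16 tissue medians (Pearson's r of log2 values among 481 candidates, as a description) differed between the loci. MiR-34a-5p was closest to miR-34a-3p, its own other arm (r = 0.93), then miR-187-3p (0.84) and miR-672-5p (0.78). For all 4 miR-34b/c products the closest was miR-92b-3p (0.89 to 0.90), a miRNA with medians of 369 rpmm in lung and 294 rpmm in brain. MiR-449a-5p was closest to let-7j (0.85), miR-92b-3p (0.84) and miR-326-3p (0.81). Among the lung-enriched members themselves r was higher. The miR-34b/c products had r of 0.98 to 0.999 with each other and 0.88 to 0.91 with miR-449a-5p. Tissue medians share library depth and the same mice.

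With age, miR-34a-5p and the miR-34b/c products mostly leaned upward and miR-449a-5p mostly downward. Spearman's rho with age over the libraries of a tissue exceeded 0.5 in 9 of 95 pairs and was below -0.5 in 0. Over all miRNAs and tissues, 3.75% of pairs exceeded 0.5 and 4.31% were below -0.5. For tissues with members called, the share above 0.5 was 6.43% in MAT, 2.06% in heart, 4.14% in marrow and 1.27% in pancreas. MAT held 5 of the 9, with rho of 0.69 for miR-34c-5p, 0.60 for miR-34c-3p, 0.59 for miR-34b-3p, 0.59 for miR-34a-5p and 0.53 for miR-34b-5p (n = 47). Heart held miR-34c-5p (0.65) and miR-34b-5p (0.55, n = 53), marrow held miR-34a-5p (0.63, n = 56) and pancreas held miR-34c-5p (0.54, n = 45). For these 9, Pearson's r of log2 values ran from 0.50 to 0.69 and was 0.43 to 0.66 after the 2 libraries farthest from the median age were left out, with permutation p of 0.00037 or less for r. As the 9 were picked by rho in the same libraries, r and its p describe them and are no separate test. With values divided by the miRNA signal, rho dropped below 0.5 for miR-34b-5p in heart (0.46) and MAT (0.43) and for miR-34b-3p in MAT (0.48), and rose above it in lung for miR-34a-5p (0.63) and miR-34c-5p (0.54). With median-ratio scaling it dropped below 0.5 for miR-34b-5p (0.41) and miR-34b-3p (0.48) in MAT. It then rose above 0.5 for miR-34a-5p in limb muscle (0.66), lung (0.61), spleen (0.56) and SCAT (0.54), and passed -0.5 for miR-449a-5p in skin and small intestine (-0.51 in both). MAT held 4 of the libraries that were closest to another tissue. When all such libraries were left out, rho of miR-34b-5p in MAT was 0.499 and that of miR-34c-5p in pancreas 0.53, and the other 4 MAT values ran from 0.57 to 0.64.

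By an adjusted p under 0.05 (permutation, over all miRNAs of a tissue), 25 of 95 pairs passed, of which 19 were positive and 6 negative, against 18% of all miRNA correlations. All 6 negative pairs were miR-449a-5p. Its rho was -0.44 in small intestine, -0.40 in limb muscle, -0.39 in marrow, -0.39 in SCAT, -0.39 in skin and -0.38 in lung, and it was negative in 11 of 16 tissues. Without the 1-month libraries these 6 values became -0.45, -0.23, -0.17, -0.33, -0.32 and -0.12 in the same order. The exception past the test was MAT, at 0.47. MiR-34a-5p had a positive rho in 15 of 16 tissues, the exception being skin at -0.01. The median rho of all miRNAs ran from -0.14 in limb muscle to 0.39 in brown adipose tissue.

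**Figure D2:**
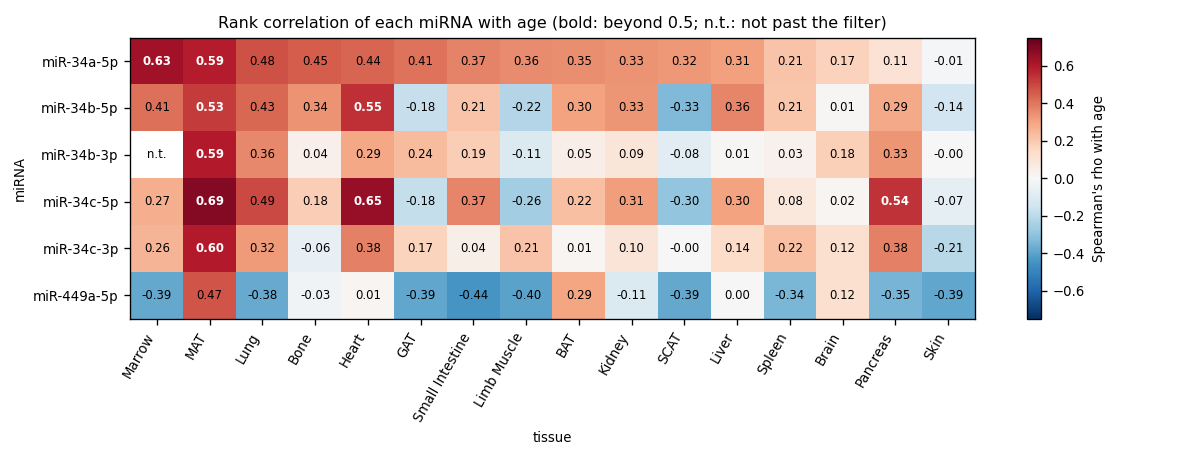
Spearman's rho with age (color and printed value) for each of the 6 miRNAs (vertical) in each of the 16 tissues (horizontal, ordered by miR-34a-5p), with values beyond 0.5 in bold white. The top line, miR-34a-5p, is positive in 15 tissues, and the bottom line, miR-449a-5p, is negative in 11 and reaches 0.47 in MAT.

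In lung, where the whole family was abundant, the members took different courses with age. MiR-34a-5p had medians of 1384 rpmm at 3 months (813 to 1551, n = 6) and 3099 rpmm at 24 months (2443 to 3828, n = 4), and these groups did not overlap. The difference was 1.33 on the log2 scale (adjusted p = 0.0296, limma), against a background of 0.78% of lung miRNA differences called. It was lost with males only, with the sequencing plate as a covariate, and without either of 2 of the 3-month libraries. Marker miRNAs of epithelium (5 of 5) and of white blood cells (3 of 3) moved with it: their sums were 7397 to 11450 and 3550 to 7337 rpmm at 3 months, and 11756 to 22534 and 10382 to 21192 rpmm at 24 months, and their part in the result was not tested.

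MiR-34b-5p in lung had medians of 2132, 3147 and 7177 rpmm at 1, 3 and 24 months, and miR-34c-5p 1266, 1448 and 3990 rpmm. Neither passed the adjusted p against 3 months at any later age. MiR-449a-5p ran the other way early in life, at 1394 to 3547 rpmm (median 2874, n = 6) at 1 month against 812 to 1404 rpmm (median 1132, n = 6) at 3 months. Those groups overlapped only at 1394 and 1404 rpmm, and the difference of 1.25 ± 0.34 gave an adjusted p of 0.0655 (limma). From 6 to 24 months its medians lay between 594 and 926 rpmm. MiR-449c-5p, of the same locus, was higher in lung at 1 than at 3 months (1.69 ± 0.37, adjusted p = 0.00467, limma).

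**Figure D3:**
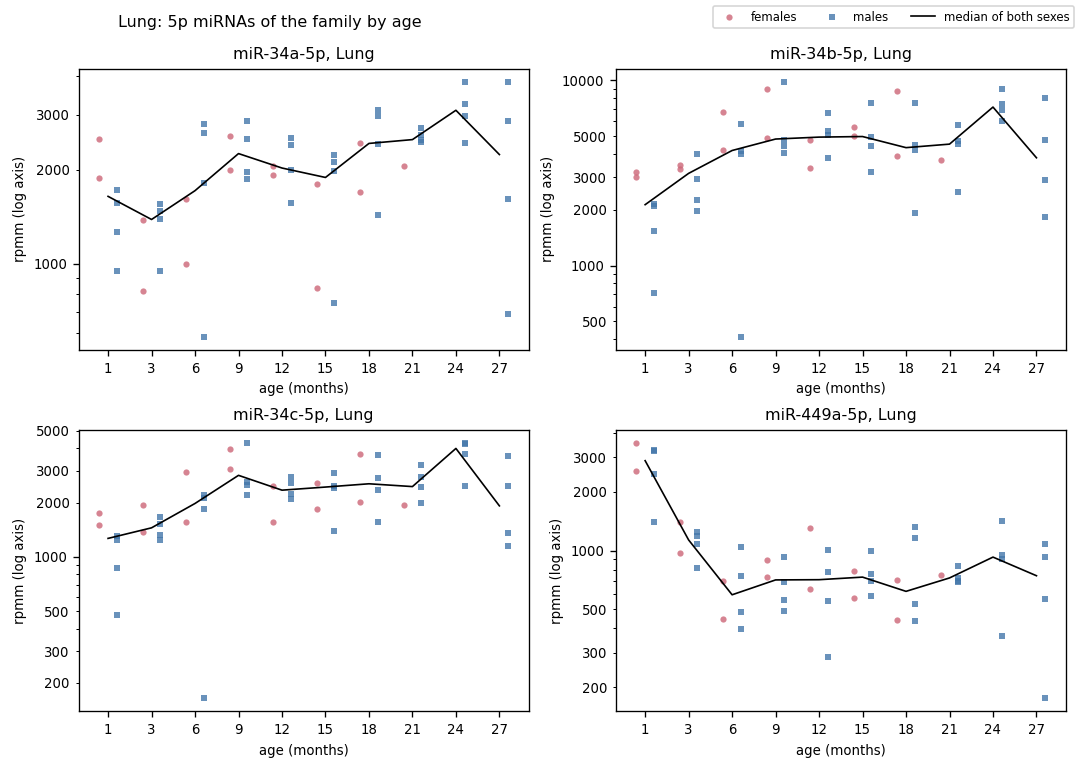
Lung levels (rpmm, log axis) of the 4 measured 5p miRNAs of the family by age in months, with females as circles, males as squares and the median of both sexes as a line. MiR-449a-5p falls from a median of 2874 rpmm at 1 month to 1132 rpmm at 3 months, while miR-34a-5p is highest at 24 months (3099 rpmm).

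The ratio of miR-449a-5p to miR-34c-5p within a library, added after the values were seen, had a negative rho with age in 13 of 16 tissues. It passed the adjusted p in 7 tissues, all falling. Without the 1-month libraries it was negative in 10 tissues and passed in 3, all falling. At 1 month miR-449a-5p was also higher in pancreas, at 5.63, 6.29, 7.82, 8.20 and 8.29 rpmm against 0.78, 0.98, 1.79, 2.07 and 2.33 rpmm at 3 months, where the library at 0.98 rpmm is the one closest to limb muscle. Those groups did not overlap, and the difference was 1.70 (adjusted p = 2.18e-04, limma) where 2.53% of pancreas miRNAs were called. It was lost under miRNA-read and median-ratio scaling and with edgeR, and the epithelial marker sum was 8913 to 13124 rpmm at 1 month and 29.4 to 8163 rpmm at 3 months. In limb muscle it stood at 3.16, 5.72, 7.61 and 14.4 rpmm at 1 month against 1.75 to 2.90 rpmm at 3 months, without overlap (1.26 ± 0.35, adjusted p = 0.0229, limma, with 5.31% of limb muscle miRNAs called), while the white blood cell marker sum was lower, at 118 to 474 against 494 to 1256 rpmm, and its part was not tested. The limb muscle call was lost with a pseudocount of 0.1 (adjusted p = 0.125, limma) and without 3-month library 09 (adjusted p = 0.0543). In MAT, miR-34a-5p was lower at 1 month (-1.38, adjusted p = 0.0492, limma, with 9.64% of MAT miRNAs called), a call lost in 10 of 13 alternatives. These were the 3 calls among 83 pairs tested between 1 and 3 months, where 1.76% of all miRNA differences were called.

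Against 3 months, later ages gave 30 higher and 0 lower calls among 718 tests of the members. The background over all miRNAs was 2.63%, of which 1.2% were higher. MiR-34a-5p had 14 of these calls, miR-34b-5p 7, miR-34c-5p 7, miR-34c-3p 1, miR-449a-5p 1 and miR-34b-3p 0. By tissue, 12 were in liver, 5 in MAT, 4 in heart, 4 in kidney, 3 in marrow and 1 each in lung and small intestine. Over all miRNAs, the share of later-age tests called was 9.11% in liver, 5.22% in MAT, 0.211% in heart and 0.955% in kidney. It was 1.03% in marrow, 0.78% in lung and 1.89% in small intestine. The contrasts of a tissue share its 3-month libraries, so the calls of the members are not independent. Only 5 of the 30 were kept in all alternatives run and without each 3-month library in turn, namely miR-34a-5p in liver at 6 and 24 months, miR-34a-5p in marrow at 27 months, miR-34c-5p in heart at 24 months and miR-34c-5p in MAT at 27 months. In heart, miR-34c-5p was at 13.6 to 20.3 rpmm (n = 4) at 24 months, above all 5 libraries of 3 months (1.43, adjusted p = 0.00233, limma). The male germ line marker sum in these hearts was 0.651 to 1.36 rpmm against 2.76 to 6.13 rpmm at 3 months, with 0 of 10 higher, and its part was not tested. In marrow, miR-34a-5p was at 444, 525, 557 and 916 rpmm at 27 months, above all 6 libraries of 3 months (1.29, adjusted p = 0.0148). In MAT, miR-34c-5p was at 18.6, 26.8 and 36.9 rpmm at 27 months against 6.77 to 12.2 rpmm at 3 months (1.36, adjusted p = 0.00157). That result, like the other MAT calls, which were all at 27 months, rests on the 3 MAT libraries closest to another tissue. The alternative that leaves such libraries out could therefore not be run for it. In these libraries, 5 of 13 marker lists separated the ages. White blood cell markers, for one, summed to 7878 to 14170 rpmm against 711 to 1375 rpmm, and their part in the result was not tested.

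In liver, miR-34a-5p stood at 195 to 847 rpmm (median 316, n = 6) at 3 months, 709 to 2212 rpmm (median 1389, n = 6) at 6 months, and 921, 1202 and 1602 rpmm at 24 months. The difference from 3 months was 1.85 at 6 months (adjusted p = 0.00346, limma) and 1.81 at 24 months (adjusted p = 0.00444), where 9.11% of liver miRNA tests were called. At 1 month, liver held 268 to 1419 rpmm, a range that overlapped both the 3-month and the 6-month group. In the same libraries the sum of 10 male germ line marker miRNAs was 0.0890 to 2.39 rpmm at 3 months and 138 to 426 rpmm at 24 months, with 9 of 10 higher. It did not separate the 6-month from the 3-month group, and its part in the 24-month result was not tested. The median difference of all liver miRNAs from 3 months was also above 0, at 0.41 at 6 months, 0.38 at 21 months and 0.49 at 24 months.

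Between 21 and 3 months, the span the study took as healthy aging, 5 of 89 pairs were called, all higher, against a background of 3.62%, of which 2.1% were higher. MiR-34b-5p in heart was at 5.58, 12.2, 14.1, 14.5 and 18.6 rpmm at 3 months and at 24.1 to 50.8 rpmm (median 32.1, n = 6) at 21 months. The groups did not overlap, and the difference was 1.37 ± 0.33 (adjusted p = 0.0277, limma), where 0.375% of heart miRNAs were called. MiR-34c-5p, from the same cluster, was at 2.63, 5.05, 5.77, 7.36 and 8.53 rpmm at 3 months and at 9.68 to 18.3 rpmm (median 13.2, n = 6) at 21 months, again without overlap (1.16 ± 0.26, adjusted p = 0.0263). They were the only 2 miRNAs called in heart. Over all heart libraries miR-34b-5p and miR-34c-5p rose and fell together (rho 0.89, n = 53), as they did in skin (0.97, n = 47). Paired calls of these 2 are therefore not independent. Both calls were lost with a pseudocount of 10 and without 3-month libraries 16 or 02 or 21-month library 04 (adjusted p up to 0.15), and that of miR-34b-5p also without a filter. The sum of male germ line markers was lower in the older hearts, at 0.740 to 1.94 against 2.76 to 6.13 rpmm, and its part in the result was not tested.

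The other 3 calls were miR-34a-5p. In liver the difference was 1.37 ± 0.40 (adjusted p = 0.0196), with values of 407, 938, 1010, 1194 and 1234 rpmm at 21 months and 8.78% of liver miRNAs called, and it was lost under miRNA-read scaling, median-ratio scaling and edgeR TMM, and in 5 of 11 leave-outs. Male germ line markers summed to 6.39 to 299.5 rpmm in these livers against 0.0890 to 2.39 rpmm at 3 months, with 9 of 10 higher, and their part was not tested. In marrow, values were 187 to 351 rpmm (n = 6) at 3 months and 388 to 773 rpmm (n = 6) at 21 months, without overlap (1.02 ± 0.29, adjusted p = 0.0482) and with 1.69% of marrow miRNAs called, but the call was lost in 5 of 13 alternatives and 11 of 12 leave-outs. In small intestine, values were 247, 317, 389, 539 and 600 rpmm at 3 months and 315 to 1057 rpmm (median 820, n = 6) at 21 months, with overlap (0.90 ± 0.27, adjusted p = 0.0226) and with 13.5% of small intestine miRNAs called, and the call was lost under median-ratio scaling, with both edgeR scalings, with males only and without 3-month library 29. The difference for miR-34a-5p was above 0 in 15 of 15 tissues. The adjusted p (limma) of those not called ran from 0.0974 in kidney (1.99 ± 0.59) to 0.782 in GAT (0.35 ± 0.46). The median difference of all miRNAs was above 0 in most of these tissues too, at 0.83 in brown adipose tissue and 0.80 in kidney. It was below 0 in GAT, heart, marrow and limb muscle, and lowest in limb muscle at -0.42.

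In kidney the 3-month group was wide. MiR-34a-5p there was at 333, 462, 1155, 1278 and 3267 rpmm at 3 months and at 3484, 4586, 4709 and 5495 rpmm at 27 months (2.26, adjusted p = 0.0361, limma), against 0.955% of kidney tests called. The call was lost without 3-month libraries 11 or 08 and with males only (highest adjusted p 0.18 and 0.16). The median difference of all kidney miRNAs was 0.73 on the same scale, and white blood cell markers stood at 1206 to 2209 rpmm at 27 months against 115 to 1090 rpmm at 3 months. The sum of 2 heart muscle markers was 2.57 to 6.52 rpmm at 27 months and 6.68 to 58.9 rpmm at 3 months, and the part of both lists in the result was not tested.

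Between the sexes, the miR-34b/c cluster differed in skin. Adjusted for age, 6 of 95 pairs were lower and 0 higher in females than in males, against 4.45% of all miRNA differences called in either direction and 2.57% lower. In skin, all 4 miR-34b/c products were lower in females, in a tissue where 29.2% of miRNAs were called. MiR-34b-5p was at 4.75 to 14.2 rpmm (median 9.89) in 13 females and at 21.6 to 82.3 rpmm (median 32.3) in 26 males up to 18 months, with no overlap. The log2 difference was -1.89 ± 0.18 (adjusted p = 9.41e-11, limma). MiR-34c-5p was at 2.90 to 8.15 rpmm (median 4.93) in females and at 8.56 to 53.5 rpmm (median 16.9) in males, also without overlap (-1.70 ± 0.17, adjusted p = 2.85e-10).

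The 3p arms gave -1.19 ± 0.14 for miR-34b-3p (adjusted p = 2.52e-08) and -1.26 ± 0.19 for miR-34c-3p (adjusted p = 1.07e-06), with some overlap of the sexes. All 4 skin calls were kept in every alternative run, including both scalings, the plate and the set of title numbers as covariates. The members from the other 2 loci did not pass the test in skin: miR-34a-5p differed by 0.10 ± 0.19 (95% interval -0.29 to 0.48), with medians of 1109 and 1002 rpmm, and miR-449a-5p by 0.44 ± 0.17 (adjusted p = 0.0511) with medians of 7.75 rpmm in females and 4.64 rpmm in males. Marker sums were compared over all ages up to 21 months, with 28 males. Those of skin epithelium ran from 21555 to 40814 rpmm in females and 312 to 30562 rpmm in males, 2 of 2 being higher in females. None of 13 marker lists separated the sexes in that set. MiR-34b-5p did not separate them there either, with males at 2.82 to 82.3 rpmm. The 2 males of 21 months were low, at 2.82 and 8.69 rpmm of miR-34b-5p, and the lower of them is the library closest to liver. There were no females of that age.

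**Figure D4:**
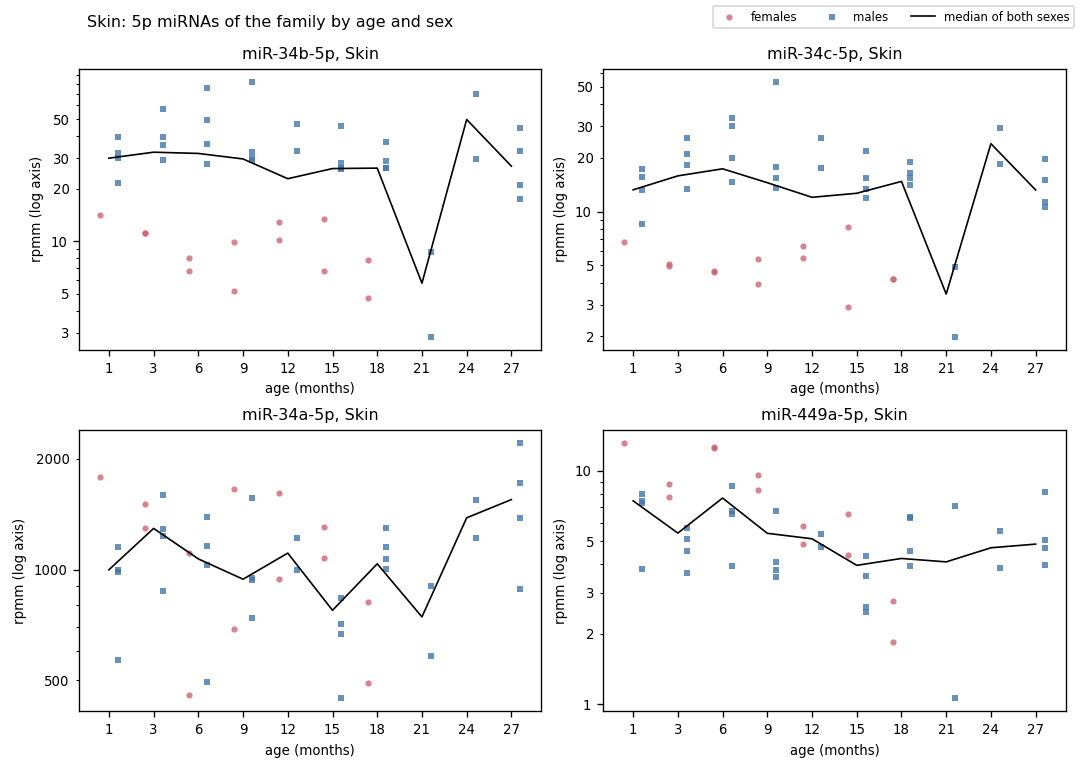
Skin levels (rpmm, log axis) of the 4 measured 5p miRNAs of the family by age in months, with females as circles, males as squares and the median of both sexes as a line. For miR-34b-5p, all 13 females lie at or below 14.2 rpmm and the 26 males up to 18 months at or above 21.6 rpmm, while the sexes overlap for miR-34a-5p.

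Outside skin, miR-34c-5p was lower in female GAT (-1.14 ± 0.36, adjusted p = 0.0381, limma), where 9.83% of miRNAs were called. It was at 15.2 to 45.1 rpmm in 13 females and at 12.8 to 251 rpmm in 20 males, so that males spanned the whole female range. The epithelial marker sum in the same GAT libraries was 62.6 to 410 rpmm in females and 48.8 to 1055 rpmm in males, and its part was not tested. The call was lost in 3 of 12 alternatives. MiR-34a-5p was lower in female limb muscle (-0.63 ± 0.18, adjusted p = 0.0348), at 131 to 357 against 163 to 1433 rpmm, where 5.88% of miRNAs were called, and this was lost in 5 of 12 alternatives. The difference of the sex effect between tissues was not tested.

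In the parabiosis cohort, members were called between aged and young mice, and none passed the test between mice of like age with different partners. HA against IA, the comparison for an effect of a young partner on an aged mouse, called 0 of 35 pairs (3 at an unadjusted p under 0.05), against 0.965% of all miRNA differences. HY against IY called 0 of 35 (1 unadjusted), against 0% of all miRNA differences. EdgeR on recovered reads called 1 and 0 of them. The closest was miR-34a-5p in GAT, at 1139 to 3473 rpmm (median 2262, n = 7) in HA and 845 to 1704 rpmm (median 1369, n = 8) in IA. The difference was 0.78 ± 0.25 (95% interval 0.27 to 1.29, adjusted p = 0.0688, limma), and it passed under miRNA-read scaling, with edgeR and with the pair as a random block.

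IA against IY, aged against young within isochronic pairs, called 5 of 35 pairs, all higher, against a background of 8.13%, of which 3.43% were higher. In heart, miR-34b-5p was at 38 to 71.9 rpmm (median 49.8, n = 8) in IA and 20.5 to 47.6 rpmm (median 23.2, n = 8) in IY (0.86 ± 0.21, adjusted p = 0.0105, limma), where 18.6% of heart miRNAs were called. MiR-34b-3p (0.80 ± 0.20, adjusted p = 0.0105) and miR-34c-5p (0.81 ± 0.21, adjusted p = 0.0130) differed as well, and the ranges of IA and IY overlapped for all of these. The same 2 miRNAs, miR-34b-5p and miR-34c-5p, were those called in heart between 21 and 3 months in the aging cohort, a different set of mice. MiR-34a-5p was higher in kidney (0.61 ± 0.17, adjusted p = 0.0377) and limb muscle (0.46 ± 0.14, adjusted p = 0.0224). Since the 2 mice of an isochronic pair share a circulation, the comparison was repeated with 1 mean per pair, and 0 of the 5 calls passed (adjusted p from 0.15 to 0.39).

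HA against HY called miR-34a-5p in kidney and limb muscle, 2 of 35 pairs, against a background of 9.81%, of which 5.51% were higher. The share called was 22.7% in kidney and 11.9% in limb muscle. In kidney, HA stood at 3401 to 9738 rpmm (median 4198, n = 6) and HY at 1498 to 2736 rpmm (median 2201, n = 7), with no overlap (1.12 ± 0.19, adjusted p = 1.05e-04, limma). In limb muscle, HA stood at 316 to 583 rpmm (median 412, n = 7) and HY at 169 to 273 rpmm (median 246, n = 7), again with no overlap (0.83 ± 0.15, adjusted p = 1.54e-04). Both were kept in 12 of 12 alternatives and 15 of 15 leave-outs of a pair number. The isochronic groups lay alongside, with IA at medians of 3840 and 363 rpmm and IY at 2512 and 284 rpmm in the same tissues. In kidney, white blood cell markers (3 of 3) were also higher in HA, at 1018 to 2412 against 502 to 997 rpmm, and their part was not tested. In limb muscle none of 13 marker lists separated HA from HY. All HY mice were of their own strain, so age and strain cannot be told apart here. The difference between the 2 age contrasts was not called for any of 35 pairs (smallest adjusted p 0.12, 1 unadjusted), against 0.592% of all miRNAs.

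**Figure D5:**
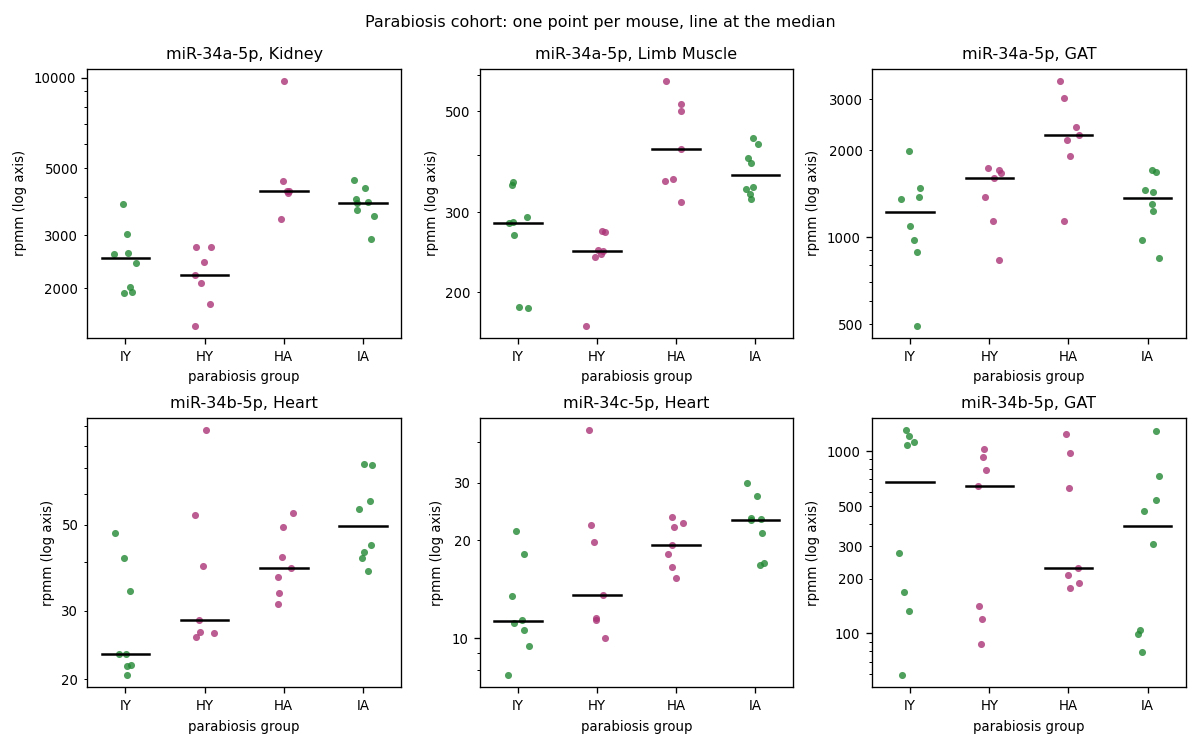
Levels (rpmm, log axis) of miR-34a-5p, miR-34b-5p and miR-34c-5p in selected tissues of the IY, HY, HA and IA mice, with 1 point per mouse and a bar at the median. MiR-34a-5p in kidney and limb muscle has every HA mouse above every HY mouse, and miR-34b-5p in GAT spans 59.1 to 1302 rpmm with all groups overlapping.

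GAT of the parabiosis cohort held a wide range of the lung-enriched members. MiR-34b-5p ran from 59.1 to 1302 rpmm over 30 mice, with all 4 groups overlapping, and miR-449a-5p from 7.58 to 259 rpmm. In GAT of the aging cohort, miR-34b-5p had a median of 67.0 rpmm and a highest value of 465 rpmm. The sum of 5 epithelial marker miRNAs (the miR-200 family and miR-141) ran from 67.5 to 31186 rpmm in the parabiosis GAT libraries and from 48.8 to 1298 rpmm in those of the aging cohort. Across the 30 parabiosis libraries it rose with miR-449a-5p (Pearson's r = 0.87 on log2 values, Spearman's rho = 0.83, adjusted permutation p = 3e-05 and 8e-05 over 24 relations, r = 0.85 without the 2 farthest libraries) and with miR-34b-5p (r = 0.74, rho = 0.70, adjusted permutation p = 3e-05 and 1.6e-04, r = 0.72 without them).

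MiR-34a-5p in the same libraries had r = 0.02 and rho = 0.12 with the epithelial sum (adjusted permutation p = 0.95 and 0.61). In the aging cohort's 37 GAT libraries the relation to the epithelial sum held for miR-34b-5p (r = 0.73, rho = 0.62, adjusted permutation p = 3e-05 and 2.93e-04, r = 0.78 without the 2 farthest). It was weaker there for miR-449a-5p (r = 0.49, rho = 0.37, adjusted permutation p = 0.00369 and 0.0432). For miR-34a-5p it was r = 0.31 and rho = 0.35 (adjusted permutation p = 0.10 and 0.054), so these 2 members differed less than in the parabiosis cohort. The sum of 10 male germ line markers ran from 0.0549 to 206 rpmm in parabiosis GAT, with group medians of 2.01 (HA), 1.94 (HY), 5.74 (IA) and 1.31 rpmm (IY), and from 0 to 1.71 rpmm in aging cohort GAT. Its relation to miR-449a-5p in parabiosis GAT was r = 0.69 and rho = 0.69 (adjusted permutation p = 3e-05 and 1.44e-04, r = 0.63 without the 2 farthest), and in the 37 aging cohort libraries r = 0.15 and rho = 0.39 (adjusted permutation p = 0.46 and 0.035, r = 0.33 without the 2 farthest). The other members had lower r and rho with this sum in parabiosis GAT. MiR-34b-3p had 0.47 and 0.56 (adjusted permutation p = 0.017 and 0.0038). MiR-34c-3p had 0.38 and 0.46 (adjusted permutation p = 0.074 and 0.023). For miR-34b-5p they were 0.35 and 0.36 (0.10 and 0.069), and for miR-34c-5p 0.31 and 0.35 (0.15 and 0.080). For miR-34a-5p they were 0.21 and 0.22 (0.36 and 0.30). In bulk tissue, more cells of a type and more RNA per cell cannot be told apart, and the part of other cell types in these levels was not tested.

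Among other miRNAs of the same loci, 2 of 5 listed were in the fits, miR-34a-3p and miR-449c-5p. They gave 3 higher and 0 lower of 129 tests of later ages against 3 months, where 2.63% of all miRNA tests were called. MiR-34a-3p moved with its partner arm in kidney (HA against HY, 0.95 ± 0.19, adjusted p = 7.74e-04, limma) and in limb muscle (IA against IY, 0.54 ± 0.12, adjusted p = 0.00144). In marrow its rho with age was 0.55, against 0.63 for miR-34a-5p.

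The list of 10 other p53-linked miRNAs (among them miR-192, miR-143, miR-145a and the miR-200c/141 pair) gave 9 higher and 3 lower of 1210 tests of later ages, against the same background of 2.63%, with a median difference of 0.27 against 0.15 over all miRNAs. The list of 10 senescence-linked miRNAs gave 36 higher and 2 lower of 1210, with a median of 0.44, and 22 of 160 pairs had a rho with age above 0.5, against 3.75% of all miRNA pairs. Its leading member was miR-155-5p, an immune cell miRNA, with rho of 0.85 in GAT and 0.79 in lung. The study named miR-155-5p and miR-29a-3p, which is also on the list, as global aging miRNAs by rho in this same cohort. The list's count of rho above 0.5 is therefore no separate test. By the same count the 6 members gave a median later-age difference of 0.51, with miR-34a-5p at 0.89 and miR-449a-5p at 0.12.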

How the data were processed

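Small RNA of frozen organs was sequenced single-end, and the authors processed reads with miRMaster, mapped them with Bowtie to miRBase and other noncoding RNA references, kept the first of identical paralogs and deposited values in rpmm, a depth-scaled signal per 1000000 mapped reads (mm10 per the labels). The miRNA values of 1 library sum to over 1000000. Whole reads were recovered from the signal by the step of 1 read, since 99% (aging) and 98.8% (parabiosis) of miRNA values up to 1000 reads lay within 0.05 of a whole number. Of 771 aging value columns, 2 could not be assigned to a sample and were not used.

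Values were tested as log2(rpmm + 1) with limma 3.58.1 (moderated, with trend), Benjamini-Hochberg over all miRNAs of a tissue past the filter, called at an adjusted p under 0.05. Folds are on that scale and understate changes of low miRNAs. Later ages, 21 against 3 months and sex (adjusted for age, 1 to 21 months) were fitted per tissue, as were the 4 parabiosis groups. Age correlation was called at Spearman's rho beyond 0.5. All permutation tests were two-sided, with 100000 resamples. Alternatives were miRNA-read and median-ratio scaling, other pseudocounts and filters, edgeR 4.0.16 on recovered reads, the study's ratio criterion, plate and title-number covariates, males only, pair blocks and leave-outs. Tests were checked on simulated data. For limma, the simulated noise was independent between miRNAs and capped in spread, below that of some members (miR-34a-5p in kidney, log2 SD 1.07). Data as variable as these were not covered by the check. Members, lists and tests were chosen with earlier results of these data known. Named were the 6 members, the 3 likest miRNAs outside the members for each and at most 2 miRNAs per list and comparison. Depth limits the counting precision of single-digit rpmm. Libraries are separate mice within a tissue, while tissues share mice. The strain name of the HY mice is not reported here. Coordinates are of GRCm38 (GENCODE vM21 annotation).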

Additional observations from a re-analysis of the deposited data

Results flagged for a closer look

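Among 24 parabiosis groups tested for 1 sample far from the others, 2 stood out, and chance gives about 1 in 20. MiR-34a-5p in kidney had 1 HA mouse at 9738 rpmm, with the next at 4520 rpmm and a group median of 4198 rpmm (n = 6). MiR-34a-5p in limb muscle had 1 HY mouse at 169 rpmm, with the next at 239 rpmm and a group median of 246 rpmm (n = 7). Both belong to the comparisons of HA with HY, whose calls were kept without either pair.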

How the results depend on the processing

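Counts of called pairs moved most with the criterion and the tool. The age correlation count of 9 became 25 by adjusted p and 8 to 11 when single libraries were left out. The 30 later-age calls became 54 with median-ratio scaling, 70 with edgeR TMM, 75 with edgeR median-ratio, 50 with the set covariate, 192 by the ratio criterion with unadjusted p and 25 to 39 without single 3-month libraries. The split of edgeR TMM was 63 higher and 7 lower, and of edgeR median-ratio 59 higher and 16 lower. The 5 calls of 21 against 3 months became 8 (median-ratio), 2 (pseudocount 10), 3 (no filter), 32 (ratio criterion), 11 and 13 (edgeR TMM, with 2 lower, and median-ratio, with 5 lower), 3 (males only) and 3 to 8 in leave-outs. The 3 calls of 1 against 3 months became 1 (median-ratio), 1 (stricter filter), 18 (ratio criterion) and 2 to 5 in leave-outs. The 6 sex calls became 17 (ratio criterion) and 11 with both edgeR scalings. HA against IA went from 0 to 1 with miRNA-read scaling, edgeR TMM and edgeR median-ratio, 3 by the ratio criterion and 0 to 1 in leave-outs. HY against IY stayed at 0 in leave-outs. IA against IY ran from 2 to 6 in leave-outs and was 0 with isochronic pair means. HA against HY was 9 by the ratio criterion and 2 to 3 in leave-outs.

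With the pair number as a replicate block, HA against IA had 1 call and IA against IY 3, HY against IY 0 and HA against HY 2 (3 with fixed heterochronic blocks). Same-numbered heterochronic mice had deviations correlated above 0.1 in 25 of 39 pairs (-0.69 to 0.86). These pairs are the joined mice of the study's design, and by tissue the count was 7 of 7 in liver, 6 of 7 in heart, 5 of 7 in limb muscle, 3 of 6 in kidney, 2 of 7 in GAT and 2 of 5 in MAT. Isochronic pairs, joined as well, had lower counts. These were 3 of 8 in liver, 4 of 8 in limb muscle, 0 of 7 in MAT and 2 of 8 each in heart, kidney and GAT. No called difference or age correlation of a member changed sign in the alternatives run. Age correlations that were not called did, among them miR-34a-5p in brown adipose tissue (0.35 as deposited, -0.19 with median-ratio scaling) and in brain (0.17, and -0.10 with males only), and miR-449a-5p in brown adipose tissue (0.29, and -0.33 with median-ratio scaling). The median over all miRNAs moved by over 0.1 between scalings in several age contrasts (kidney at 27 months 0.73 as deposited and -0.099 with median-ratio scaling).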
